A study of Mus musculus with 14 samples.

Results

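Skeletal muscle transcripts were followed in bulk RNA-seq of 14 subcutaneous CT26 tumors, through 36 genes of the sarcomere, of calcium handling, and of muscle energy metabolism. The genes were chosen by name, from the machinery of adult skeletal muscle, by a rule that used no measured value, although earlier results of these data were known when the list was drawn up. All 36 were found among the 53801 Ensembl genes in each tumor, each under 1 identifier, and 33 had enough counts to be tested. CT26 cells come from a mouse colon carcinoma. Female Balb/c mice, 6 to 8 weeks old, received 250000 barcoded CT26 cells under the skin of both flanks, and from day 7 were given control IgG or anti-PD-1 at 200 μg every 3 days for 5 doses, and tumors were taken 3 days after dosing ended. The control IgG group held 5 tumors of 4 mice. Anti-PD-1 tumors were divided by their final size against the control cohort into 5 responders, of 4 mice, and 4 non-responders, of 3 mice. The comparisons below ask whether muscle transcripts differ between these groups, and between the tumors themselves.

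Tumors are named by mouse number and flank (L or R). The control IgG tumors were 14L, 14R, 16R, 17R and 20R, the responders 24L, 26R, 30L, 30R and 35L, and the non-responders 29L, 32R, 33L and 33R. Values are given in these orders throughout. Mice 14, 30 and 33 gave both their flank tumors, and the tests counted each tumor as a replicate. Each library held between 33237744 and 48481461 expected counts, which are estimated numbers of fragments per gene. CPM is counts relative to the library after TMM scaling, and was used to follow a gene across tumors. TPM is also divided by gene length, and was used to compare genes with each other. Krt20, a keratin of colon epithelium, was at 202 to 489 CPM in all 14 tumors, whereas Vil1, the villin of intestinal brush borders, was at no more than 0.174 CPM. Because CT26 cells and the host are both mouse, the reads do not tell host transcripts from those of the tumor cells. In bulk RNA, fewer muscle fibers in the piece and less RNA per fiber cannot be told apart either.

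Skeletal muscle contracts when myosin thick filaments pull on actin thin filaments within the sarcomere, after calcium released from the sarcoplasmic reticulum binds troponin, which shifts tropomyosin off the myosin binding sites. Fast and slow fibers use different genes for the same parts, so that the troponins, the myosin heavy and light chains, and the calcium pump each come in a fast and a slow version. Fast fibers draw on creatine phosphate and glycolysis, and slow fibers on oxidative metabolism. In the mouse flank, a thin sheet of striated muscle, the panniculus carnosus, lies under the skin.

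Many muscle promoters carry the E-box bound by MyoD family factors, the CArG box bound by serum response factor, or the site of MEF2 factors. RefSeq promoters on GRCm38.p6, running from 250 bases before to 50 bases after an annotated start, were matched for 30 of the 36 genes. The letters CAGCTG, an E-box that reads the same on both strands, were found for 16 of these 30 (53.3%), against 18.3% of all 27025 genes with a promoter entry. The looser CANNTG, which includes CAGCTG, was found for 26 of the 30 (86.7%), against 75.0% of all genes. A CArG box was found for 4 (13.3%, against 1.81%) and a MEF2 site for 5 (16.7%, against 3.704%), and both motifs were read on either strand since each mirrors itself. These are descriptions of letters in a window, and do not show binding. The promoters of the most abundant thin filament gene, the muscle creatine kinase, the main fast myosin, and the most evenly expressed of the 36 genes are shown, 5′ to 3′ along the gene, with CAGCTG, CArG boxes and MEF2 sites in capitals. They lie at chr8:123894726-123895025 (minus strand) for Acta1, and on the plus strand at chr7:19410844-19411143 for Ckm, chr11:67237562-67237861 for Myh4, and chr11:70656926-70657225 for Eno3.
Acta1: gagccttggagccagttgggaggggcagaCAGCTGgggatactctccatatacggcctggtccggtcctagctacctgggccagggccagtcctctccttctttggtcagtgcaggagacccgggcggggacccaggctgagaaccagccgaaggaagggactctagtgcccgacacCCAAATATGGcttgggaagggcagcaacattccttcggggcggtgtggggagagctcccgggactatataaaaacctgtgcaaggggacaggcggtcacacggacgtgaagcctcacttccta
Ckm: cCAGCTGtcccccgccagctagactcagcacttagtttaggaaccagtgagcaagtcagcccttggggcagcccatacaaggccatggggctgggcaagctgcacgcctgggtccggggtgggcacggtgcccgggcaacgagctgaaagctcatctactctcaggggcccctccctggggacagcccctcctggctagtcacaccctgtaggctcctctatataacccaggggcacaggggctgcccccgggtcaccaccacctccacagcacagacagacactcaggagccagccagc
Myh4: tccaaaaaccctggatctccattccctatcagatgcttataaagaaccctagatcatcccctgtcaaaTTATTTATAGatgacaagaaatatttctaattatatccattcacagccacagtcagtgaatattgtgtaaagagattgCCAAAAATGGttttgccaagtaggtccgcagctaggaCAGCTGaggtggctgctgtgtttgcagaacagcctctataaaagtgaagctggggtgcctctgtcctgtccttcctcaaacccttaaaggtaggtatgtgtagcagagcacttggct
Eno3: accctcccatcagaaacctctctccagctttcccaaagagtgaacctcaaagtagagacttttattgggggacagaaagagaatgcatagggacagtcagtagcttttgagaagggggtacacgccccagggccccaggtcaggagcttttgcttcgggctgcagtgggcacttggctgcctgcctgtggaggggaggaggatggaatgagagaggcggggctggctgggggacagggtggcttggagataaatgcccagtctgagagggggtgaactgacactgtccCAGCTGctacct

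Muscle transcripts made up a small and very uneven share of the libraries. The 36 genes took 0.0475, 0.236, 0.0539, 0.0318 and 0.0443% of the expected counts in the control IgG tumors. In the responders they took 0.0936, 0.0755, 0.0155, 0.0943 and 0.0283%, and in the non-responders 0.0283, 0.0340, 0.0509 and 0.137%. The highest share was in 14R, the next in 33R, and the lowest in 30L, so that the extremes came from all 3 groups and the groups overlapped. The median share was 0.0475% in control IgG tumors (n = 5), 0.0755% in responders (n = 5), and 0.0424% in non-responders (n = 4). The means were 0.0827% ± 0.0860 (SD, n = 5), 0.0614% ± 0.0371 (SD, n = 5), and 0.0626% ± 0.0507 (SD, n = 4), and thus fell in a different order from the medians. Without 14R the median control share was 0.0459%. A summed share over chosen genes was not tested between groups.

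**Figure D1:**
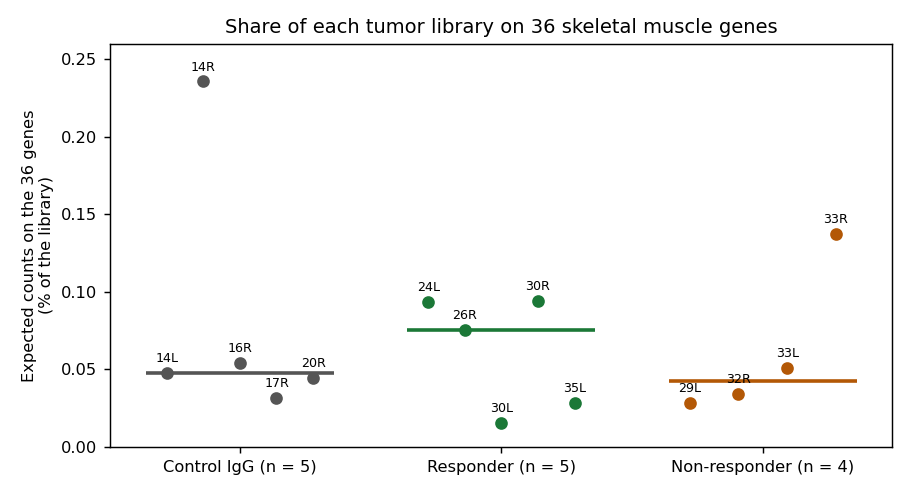
Share of each library's expected counts on the 36 muscle genes (vertical axis, percent) in each tumor (points, named by mouse and flank), with the median of each group as a line. Tumor 14R stands at 0.236% and 33R at 0.137%, and 30L is lowest at 0.0155%.

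The genes moved together from tumor to tumor. Of the 36 genes, 35 had their highest CPM in 14R, and 28 of these were next highest in 33R. The lowest CPM was in 30L for 31 genes. Among all 16287 tested genes, 7.69% were highest in 14R and 5.11% lowest in 30L. The highest tumor was at least 10 times the lowest for 31 of the 33 muscle genes with counts in every tumor, with a median ratio of 43.8, against 4.56% of all tested genes and a median of 1.94. The exceptions were Eno3 and Tnni1, at 1.95 and 9.60 times.

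**Figure D2:**
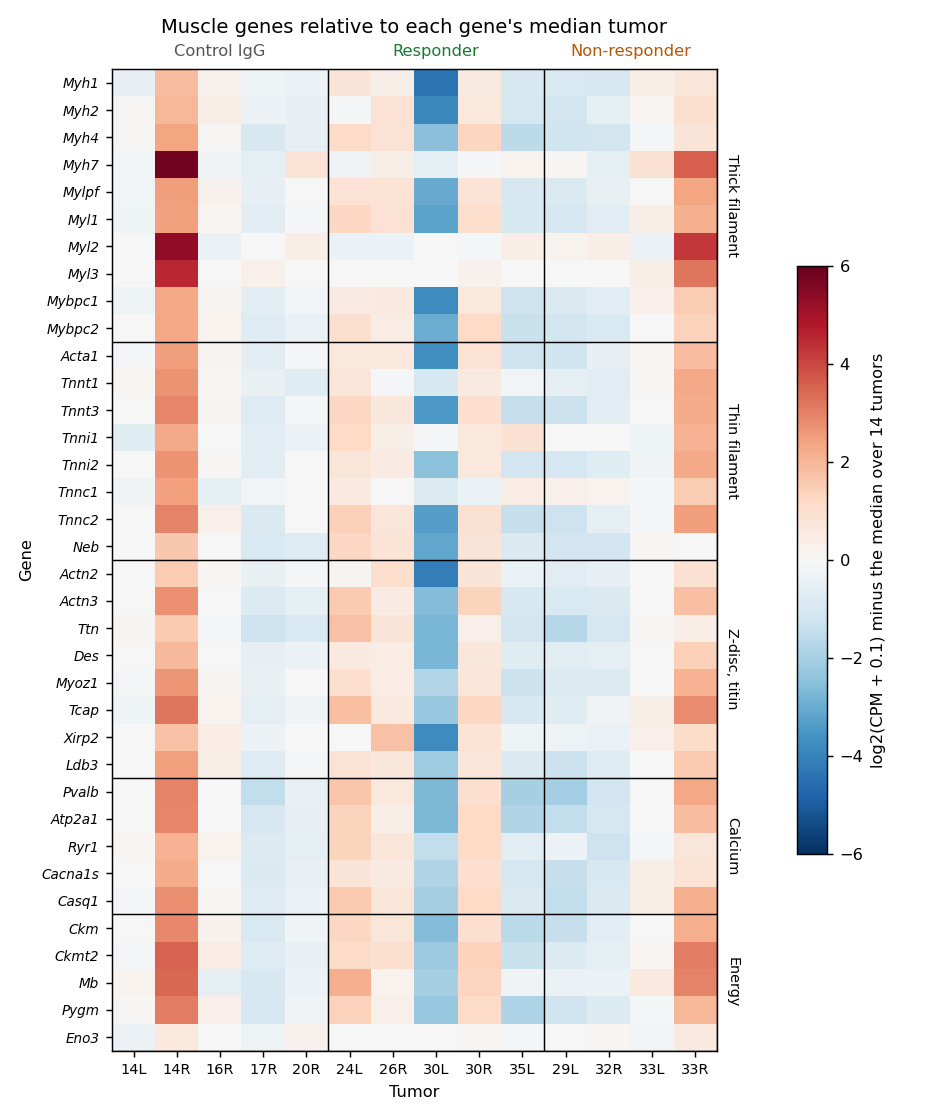
Each muscle gene (vertical axis, grouped by role) in each tumor (horizontal axis, by group), colored by log2(CPM + 0.1) minus the gene's median over the 14 tumors. The columns of 14R and 33R are red and that of 30L is blue through most genes, and Eno3 at the foot is nearly even, at 85.5 to 167 CPM.

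The thin filament held Acta1, the gene with the most TPM of the 36 in the highest tumor. Acta1, the skeletal muscle alpha-actin at chromosome 8, 123891769 to 123894751 (mm10, minus strand), had a median of 82.8 TPM over the 14 tumors, with 6.44 TPM in the lowest and 412 TPM in the highest. Acta1 was measured at 73.1, 450.1, 88.7, 50.5 and 73.3 CPM in the control IgG tumors, 124, 121, 6.18, 145 and 33.7 CPM in the responders, and 34.04, 56.4, 85.4 and 289 CPM in the non-responders. The value of 14R exceeded those of the other control IgG tumors by at least 5-fold, and 33R exceeded its group in the same way by over 3-fold. Tnnt3, the fast troponin T that ties troponin to tropomyosin, had 18.03, 139, 20.1, 10.5 and 17.04 CPM in the control IgG tumors, 42.2, 28.7, 1.58, 36.7 and 6.93 CPM in the responders, and 7.297, 11.4, 18.1 and 85.5 CPM in the non-responders. Its order over tumors was close to that of Acta1, with 14R and 33R on top and 30L at the bottom. The other fast troponins, Tnni2 (the inhibitory subunit) and Tnnc2 (the calcium-binding subunit), ran from 2.64 to 98.4 CPM and from 1.06 to 92.3 CPM, again lowest in 30L and highest in 14R. Neb encodes nebulin, the long ruler of the thin filament. Neb was at 6.59, 19.96, 6.67, 3.37 and 3.701 CPM in the control IgG tumors, 15.5, 11.6, 0.6602, 11.2 and 3.47 CPM in the responders, and 2.89, 2.92, 7.11 and 6.397 CPM in the non-responders. For Neb, 33R did not stand out, and was below 33L from the same mouse.

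The slow troponins were low in every tumor, but they were not as uneven as the fast ones. Tnnt1, the slow troponin T, had 0.8800, 5.91, 0.893, 0.579 and 0.457 CPM in the control IgG tumors, 1.43, 0.787, 0.3697, 1.23 and 0.719 CPM in the responders, and 0.523, 0.486, 0.849 and 4.27 CPM in the non-responders. Tnni1, the slow troponin I, had 0.369, 3.54, 0.657, 0.386 and 0.503 CPM in the control IgG tumors, 1.66, 0.874, 0.607, 1.09 and 1.35 CPM in the responders, and 0.672, 0.648, 0.538 and 3.17 CPM in the non-responders. Tnnc1, the troponin C of slow and cardiac muscle, had 0.596, 4.38, 0.447, 0.627 and 0.708 CPM in the control IgG tumors, 1.11, 0.728, 0.3697, 0.516 and 1.003 CPM in the responders, and 0.921, 0.833, 0.651 and 2.22 CPM in the non-responders. Each was highest in 14R and 33R, while the other 12 tumors lay within 0.369 to 1.66 CPM for Tnni1, without the deep fall of the fast genes in 30L. Accordingly, the slow gene's part of the Tnni1 and Tnni2 TPM was 20.8% in 30L, 1.995% in 14R and 2.45% in 33R. Tnnt1 made up 21.4% of the Tnnt1 and Tnnt3 TPM in 30L, 4.27% in 14R and 4.54% in 33R. The slow share of a troponin pair was therefore highest where the fast gene was lowest. In 30L, however, it rested on 23 counts of Tnni1 and 14 counts of Tnnt1, and no interval was computed.

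Among the thick filament genes, the fast myosins predominated in every tumor. Myh4 encodes the fastest heavy chain (IIb), Myh1 the IIx chain, and Myh2 the IIa chain. They lie side by side on chromosome 11 (mm10, plus strand), Myh2 at 67171027 to 67197517, Myh1 at 67200052 to 67224575, and Myh4 at 67238029 to 67260446. Myh4 was measured at 50.2, 249.7, 50.4, 24.6 and 34.5 CPM in the control IgG tumors, 108, 86.7, 8.45, 119 and 16.2 CPM in the responders, and 20.6, 22.3, 46.2 and 82.97 CPM in the non-responders. Myh1 had 11.5, 59.6, 19.4, 13.99 and 12.7 CPM in the control IgG tumors, 27.8, 21.01, 0.687, 23.8 and 8.54 CPM in the responders, and 8.65, 8.06, 21.5 and 27.1 CPM in the non-responders. Myh2 had 7.06, 27.3, 8.75, 5.32 and 4.76 CPM in the control IgG tumors, 6.51, 12.3, 0.3697, 10.6 and 3.18 CPM in the responders, and 3.13, 4.48, 7.43 and 13.2 CPM in the non-responders. All were highest in 14R and lowest in 30L. The next tumor was 30R for Myh4, 24L for Myh1, and 33R for Myh2. Of the TPM on Myh1, Myh2, Myh4 and Myh7, the main slow chain, Myh4 took 56.1 to 88.7% (median 65.3%), Myh1 7.39 to 31.7% (median 22.0%), and Myh2 3.94 to 13.2% (median 10.05%). Myh4 was thus the leading heavy chain in all 14 tumors. The coding sequences of these neighbors are alike, so that reads matching more than 1 of them were divided by estimate, and their proportions are uncertain to that extent.

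Transcripts of slow fiber myosin were nearly confined to the tumors with the most muscle. Myh7 encodes the slow heavy chain, and Myl2 and Myl3 the regulatory and essential light chains of slow and cardiac muscle. Myh7 had 0.0284, 7.88, 0.0263, 0 and 0.1599 CPM in the control IgG tumors, 0.0231, 0.0874, 0, 0.0397 and 0.0654 CPM in the responders, and 0.0498, 0, 0.1699 and 1.65 CPM in the non-responders. In counts, Myh7 was at 369 in 14R and 52 in 33R, and at 0 to 7 in the other 12 tumors. Myl2 was at 235 and 74 counts, with 0 to 3 elsewhere, and in CPM at 0.0284, 5.02, 0, 0.0241 and 0.0685 CPM in the control IgG tumors, 0, 0, 0.0264, 0.0199 and 0.0654 CPM in the responders, and 0.0498, 0.0695, 0 and 2.34 CPM in the non-responders. Myl3 was at 103 and 26 counts, with 0 or 1 in the other 12. Myh7 made up 2.29% of the counts on the 4 heavy chains in 14R (95% Wilson interval 2.07 to 2.53%) and 1.32% in 33R (1.01 to 1.73%). The highest of the other 12 was 0.306% in 20R (0.149 to 0.631%). In 30L only 360 counts fell on the 4 heavy chains, so that 0 counts of Myh7 had a Wilson interval of 0 to 1.06%, against 0 to 0.211% in 17R and 0 to 0.255% in 32R, also at 0. Taking 3 counts as the limit, the 0 counts allowed shares of up to 0.833%, 0.165% and 0.199% in these tumors. The intervals cover counting error only. The Wilson intervals of 30L and 33R overlapped, whereas 24L and 30R, with 6159 and 7716 counts on the 4 genes, had 1 and 2 counts of Myh7. Tumor 33R held fewer counts on the 4 genes than these, at 3942, but 52 of Myh7. By TPM, the median Myh7 share over the 14 tumors was 0.0725%, with 4.07% in 14R, 2.97% in 33R, and 2.73% in 35L. TPM was given to 2 decimals, and this median lay between 14L at 0.01 TPM of Myh7 and 26R at 0.02 TPM. The median is therefore only as exact as that rounding. The value of 35L rested on 3 counts and an effective length of 482 bases, against 5867 in 14L, and is therefore not comparable with the others. The effective length was also shorter in 14R and 33R, at 3171.5 and 2496 bases. Their TPM shares were thus above their shares of counts, 2.29% and 1.32%, and are not comparable with that of 14L either. Myh7, Myl2 and Myl3 were the 3 genes with too few counts to be tested.

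**Figure D3:**
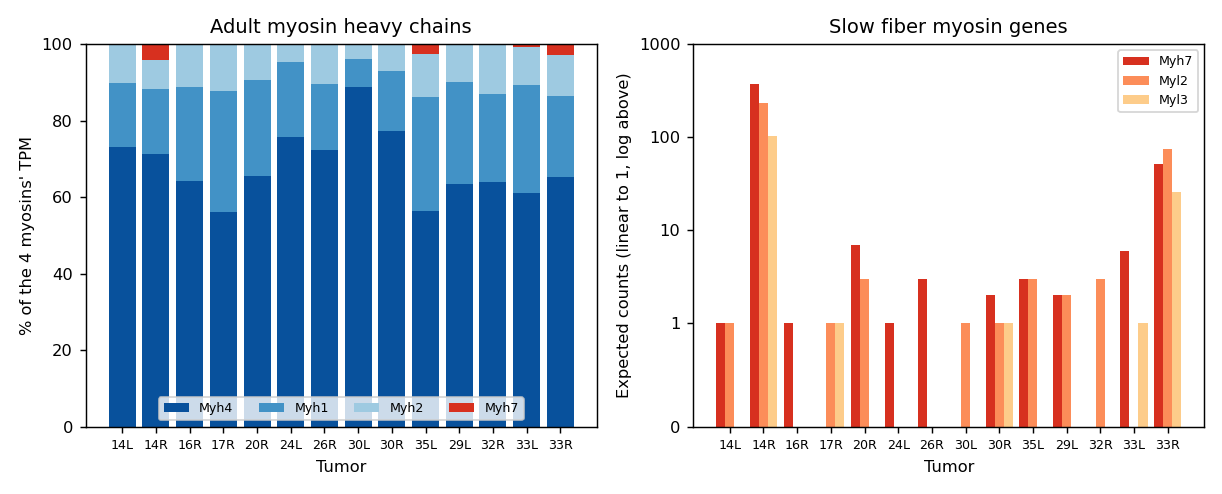
Left, share of each adult myosin heavy chain in the TPM of the 4 (percent) by tumor, with Myh4 largest in all. Right, expected counts of the slow fiber genes Myh7, Myl2 and Myl3 by tumor (linear to 1, log above), which reach 369, 235 and 103 in 14R and 52, 74 and 26 in 33R but no more than 7 elsewhere.

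The other thick filament genes followed the fast myosins. Mylpf, the fast regulatory light chain, was at 14.3, 91.6, 19.04, 11.4 and 15.7 CPM in the control IgG tumors, 29.7, 28.9, 1.88, 28.97 and 8.11 CPM in the responders, and 8.77, 11.7, 16.6 and 82.3 CPM in the non-responders. In 33R it nearly reached the level of 14R, unlike Myh4. Myl1, the fast essential light chain, ran from 1.24 to 68.6 CPM. Mybpc1 and Mybpc2, the slow and fast forms of myosin-binding protein C, ran from 0.290 to 26.6 CPM and from 1.21 to 51.4 CPM. Although Mybpc1 is named for slow muscle, it made up 25.8 to 44.6% of the TPM of the pair in all tumors, and it was lowest in 30L and highest in 14R, as the fast genes were. Taking the 14 fast fiber genes together, the summed TPM was 29.3 in 30L and 1288 in 14R. That of the 7 slow fiber genes was 4.28 in 30L and 53.3 in 14R.

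Among the Z-disc and titin genes, a responder passed 14R in Ttn and came close to it in Xirp2. Desmin, the intermediate filament that links Z-discs and is also made in smooth muscle, was at 27.1, 101, 26.3, 19.1 and 20.7 CPM in the control IgG tumors, 40.4, 35.9, 3.91, 43.2 and 16.3 CPM in the responders, and 16.6, 18.2, 26.9 and 71.3 CPM in the non-responders. Its lowest value, in 30L, was still 148 counts. Titin spans from Z-disc to M-line and is the longest transcript here. Ttn was at 7.01, 18.3, 5.78, 2.58 and 3.22 CPM in the control IgG tumors, 20.9, 10.6, 0.845, 7.63 and 2.86 CPM in the responders, and 1.82, 2.99, 6.54 and 8.202 CPM in the non-responders. Its highest tumor was the responder 24L, not 14R, which made it the only one of the 36 genes with its maximum elsewhere. Xirp2, an actin-binding repeat protein of the Z-disc region, was at 8.09, 28.1, 11.2, 6.29 and 7.996 CPM in the control IgG tumors, 8.18, 27.7, 0.502, 14.6 and 6.82 CPM in the responders, and 6.67, 6.18, 10.1 and 17.8 CPM in the non-responders. Responder 26R was nearly level with 14R in Xirp2, although its Acta1 was at 121 CPM against 450.1 CPM. Actn2 and Actn3, the alpha-actinins that crosslink actin at the Z-disc, the latter in fast fibers, ran from 0.132 to 11.6 CPM and from 1.21 to 53.2 CPM. Myoz1, Tcap and Ldb3, further Z-disc proteins, were highest in 14R at 16.5, 26.0 and 14.5 CPM, and lowest in 30L at 0.687, 0.475 and 0.502 CPM.

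The calcium handling genes were lowest in 30L and highest in 14R, the fast fiber genes among them by the wider ratios. Atp2a1, the fast calcium pump of the sarcoplasmic reticulum (SERCA1), was at 27.3, 213, 28.2, 13.6 and 19.7 CPM in the control IgG tumors, 70.2, 36.7, 4.17, 64.6 and 7.97 CPM in the responders, and 9.91, 13.1, 28.4 and 99.3 CPM in the non-responders. Pvalb, the calcium buffer parvalbumin of fast fibers, was at 7.097, 55.1, 6.99, 2.41 and 5.05 CPM in the control IgG tumors, 22.1, 10.8, 1.004, 13.9 and 1.700 CPM in the responders, and 1.62, 3.13, 6.91 and 34.7 CPM in the non-responders. Pvalb was therefore at 55.1 CPM in 14R and 34.7 CPM in 33R, but at 2.41 CPM or less in 17R, 29L, 35L and 30L. Ryr1, the calcium release channel, and Cacna1s, the voltage sensor that opens it, ran from 2.17 to 26.6 CPM and from 0.502 to 9.65 CPM. Casq1, the fast calsequestrin that stores calcium, ran from 0.845 to 25.3 CPM. The highest tumor was 54.9 times the lowest for Pvalb, 51.1 times for Atp2a1 and 29.95 times for Casq1, but 19.2 times for Cacna1s and 12.3 times for Ryr1, which fast and slow fibers share. Outside calcium handling, genes assigned to neither fiber type ran from 1.95 times for Eno3 to 247 times for Ckmt2, with Acta1 at 72.8 times. Ryr1 and Cacna1s were also the longest of the calcium genes, at mean effective lengths of 14119 and 3916 bases. The part of fiber type or length in these ratios was not tested.

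The energy genes fell into 2 patterns. Ckm, the muscle creatine kinase, which regenerates ATP from creatine phosphate, was at 25.8, 196, 31.2, 13.6 and 22.4 CPM in the control IgG tumors, 61.6, 42.6, 4.17, 53.1 and 8.43 CPM in the responders, and 10.01, 16.2, 26.4 and 120.0 CPM in the non-responders. Ckmt2, its mitochondrial form, rested on 1 count in 30L and 306 counts in 14R, and ran from 0.0264 to 6.53 CPM. Mb, the oxygen-binding myoglobin, was at 1.42, 14.3, 0.814, 0.579 and 0.937 CPM in the control IgG tumors, 6.01, 1.46, 0.238, 3.15 and 1.07 CPM in the responders, and 0.897, 0.949, 1.87 and 10.5 CPM in the non-responders. In Ckmt2 and Mb, 14R stood 17.5-fold and 14.2-fold above the median of the 12 tumors other than 14R and 33R, and 33R stood 12.9-fold and 10.4-fold above it. These were the highest ratios of the 33 genes for which one was computed, and Acta1 and Ckm were at 6.15-fold and 8.13-fold in 14R. Pygm, the muscle glycogen phosphorylase, ran from 1.27 to 54.6 CPM. Eno3, the muscle enolase of glycolysis, behaved differently, at 85.5, 167, 105, 88.2 and 127 CPM in the control IgG tumors, 108, 108, 105, 118 and 103 CPM in the responders, and 107, 116, 96.1 and 162 CPM in the non-responders. Its lowest tumor was 14L, and 30L was close to the median. Eno3 had the highest median level per length of the 36 genes, at 113.5 TPM, and took 6.84 to 67.6% of the counts on them. Without it the share of the library on the remaining genes was 0.00503% in 30L and 0.220% in 14R.

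The 3 mice with 2 tumors allowed a comparison within a host. In each mouse the right flank tumor had the higher share, at 0.236% against 0.0475% in mouse 14 (control IgG), 0.0943% against 0.0155% in mouse 30 (responder), and 0.137% against 0.0509% in mouse 33 (non-responder). These were 4.97, 6.09 and 2.697 times. In CPM, 36, 35 and 35 of the 36 genes were higher in the right tumor of mice 14, 30 and 33, and the exceptions were Myl2 in mouse 30, with 1 count in each tumor, and Neb in mouse 33. A two-sided exact permutation test of the log2 ratio of shares over the 3 mice gave p = 0.25. With 3 pairs this is the smallest p it can give, so the test cannot decide whether the flanks differ. Over all tumors, the shares ran from 0.0155 to 0.0936% (median 0.0379%, n = 6) on the left and from 0.0318 to 0.236% (median 0.0647%, n = 8) on the right, and so overlapped.

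How far the right tumor exceeded the left depended on the gene. In mouse 14, Mylpf was 6.40 times as high on the right, Acta1 6.16 times, Myh4 4.98 times, Neb 3.03 times, and Ttn 2.61 times. In mouse 33 the same genes were at 4.96, 3.39, 1.79, 0.900 and 1.25 times. Of the muscle genes with effective lengths under 2000 bases, 18 had counts in the left tumor of each mouse, and so a ratio. Their median ratio was 4.99 in mouse 33, where Myl2 had none, and that of the 7 genes over 5000 bases was 1.76. In mouse 14 the medians were 7.55 and 3.86, and in mouse 30 they were 13.0 and 17.0, with Myl3 lacking a ratio in both. The right tumor of mouse 33 was also higher in short genes of all kinds, since over 7842 tested genes under 2000 bases the median ratio was 1.25 and over 1402 genes over 5000 bases it was 0.552. In mouse 14 these medians were 1.12 and 0.742, and in mouse 30 they were 0.976 and 0.978. Thus gene length moved with the ratio in mice 14 and 33 across the whole library, and its part in the muscle genes was not tested.

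**Figure D4:**
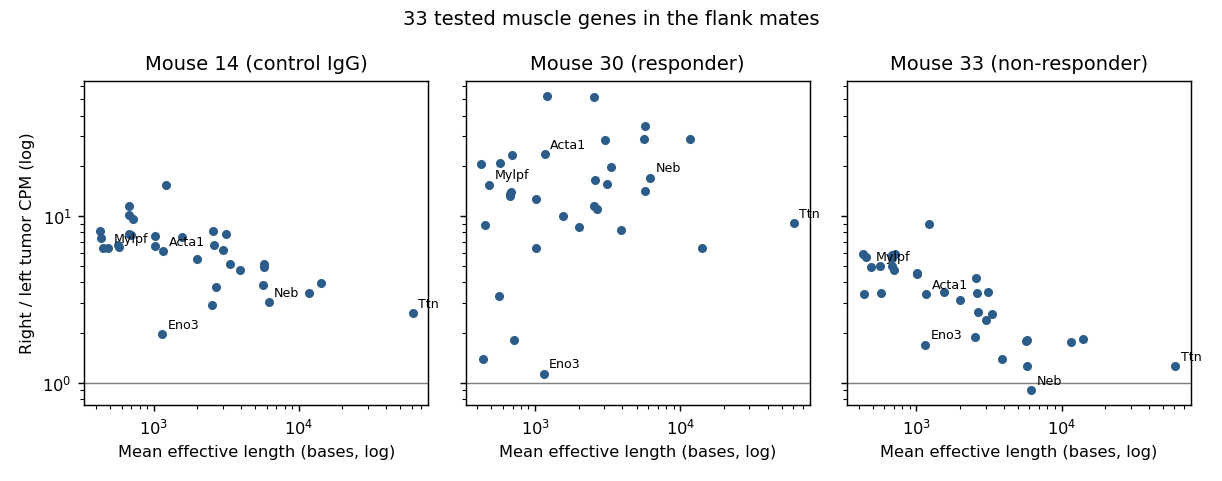
Ratio of right to left flank tumor CPM (vertical axis, log) against mean effective length in bases (horizontal axis, log) for the 33 tested muscle genes in each mouse with 2 tumors. In mouse 33 long genes such as Ttn (1.25) and Neb (0.900) lie near 1, while Mylpf is at 4.96, and in mouse 30 no such slope is seen.

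None of the muscle genes passed the test between responders and control IgG tumors. In edgeR's quasi-likelihood test with Benjamini-Hochberg adjustment over 16287 genes, 0 of 33 tested muscle genes had an adjusted p under 0.05, where 13.2% of all tested genes did. None had an unadjusted p under 0.05, and DESeq2 and limma-voom also called 0. The median log2 fold change of the 33 genes was -0.63, against -0.01 over all tested genes, and 30 of them were negative. Acta1 had a log2 fold change of -0.77 ± 0.80 (SE, adjusted p = 0.576), and Ckm one of -0.77 ± 0.88 (SE, adjusted p = 0.616). For Tnnt3 it was -0.82 ± 0.90 (SE, adjusted p = 0.599) and for Myh4 -0.28 ± 0.74 (SE, adjusted p = 0.847). The sign rested on 14R. Without 14R and 33R, which were left out for their muscle level itself, 33 of 33 genes were positive with a median of 0.52. Without 14R alone the values were 0.28 for Acta1, 0.55 for Ckm, 0.51 for Tnnt3 and 0.77 for Myh4, and without 30L that of Myh4 was 0.01. With the left tumor kept of each mouse with 2, Tnni1 alone was called, at 1.23 ± 0.33 (SE, adjusted p = 0.0255), against 0.03 ± 0.66 (SE, adjusted p = 0.986) in all tumors and 0 genes called with the right tumor kept.

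Non-responders and control IgG tumors gave no call either, and 0% of all tested genes passed the test there. Of all tested genes 758 had an unadjusted p under 0.05, and of the 33 muscle genes 0. The median log2 fold change of the muscle genes was -0.36, against 0.01 over all tested genes, and 31 of 33 were negative. Without 14R and 33R 5 of 33 were positive, with a median of -0.26. Acta1 was at -0.34 ± 0.85 (SE, adjusted p = 0.953), Ckm at -0.43 ± 0.93 (SE, adjusted p = 0.9497), Tnnt3 at -0.43 ± 0.95 (SE, adjusted p = 0.951), and Myh4 at -0.93 ± 0.80 (SE, adjusted p = 0.931). Without 14R all 4 were positive, at 0.69, 0.88, 0.88 and 0.10.

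Between responders and non-responders, 0 of the 33 genes were called and 0 had an unadjusted p under 0.05, where 9.9% of all tested genes were called. The muscle genes had a median log2 fold change of -0.18, against 0.01 over all tested genes, with 10 positive and 23 negative. Without 14R and 33R, which were left out for their muscle level itself, 32 of 33 were positive with a median of 0.87. The long genes Ttn and Neb had the highest values, both at 0.82 (SE 0.76 and 0.70, adjusted p = 0.515 and 0.476). Myh4 was at 0.65 ± 0.80 (SE, adjusted p = 0.631), whereas Acta1, Ckm and Tnnt3 were at -0.43 ± 0.84, -0.34 ± 0.93 and -0.39 ± 0.94 (SE, adjusted p = 0.781, 0.848 and 0.825). Without 33R, the latter 3 were at 0.58, 0.97 and 0.94. Standard errors, which measure the uncertainty of each fold change, had a median of 0.76 to 0.81 over the muscle genes in the 3 comparisons. Fold changes of the sizes above were thus not resolved with these tumors. The comparisons share tumors, so their values are not independent.

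Other genes of striated muscle gave the same picture of the tumors. Of 61 further genes of the sarcomere, the triad and muscle metabolism, 45 were highest in 14R and 38 lowest in 30L. Of the 59 that could be tested, 0 were higher and 2 lower in responders than in control IgG tumors, where 13.2% of all tested genes were called (6 at an unadjusted p under 0.05). Cavin4, a muscle caveolar protein, fell by 0.83 ± 0.22 on the log2 scale (SE, adjusted p = 0.0251), and Tpm3, a tropomyosin of slow muscle that most cells also express, fell by 0.24 ± 0.07 (SE, adjusted p = 0.0356). Both genes were lower in the responders 24L and 26R, rich in Acta1, than in 30L, although Tpm3 was highest in 14R, at 394 CPM. The part of muscle content in these 2 calls was not tested. Against non-responders, Cox6a2, the muscle subunit of cytochrome c oxidase, fell by 1.27 ± 0.32 (SE, adjusted p = 0.0251), as the 1 call of the 59 genes where 9.9% of all tested genes were called. Between non-responders and control IgG tumors 0 genes of the list were called, and 0 had an unadjusted p under 0.05.

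Myogenic regulators and developmental forms were low throughout, and 4 of the 13 regulators but none of the 5 developmental genes were highest in 14R. Pax7, the marker of satellite cells, was at 0 in every tumor but 24L, where it was at 0.0231 CPM, and Myf5 was at no more than 0.0462 CPM. Myog, a factor of differentiating myoblasts, reached 0.953 CPM in 30R, 0.939 CPM in 14R and 0.878 CPM in 24L, and was at 0 in 30L. Of 13 myogenic genes 7 could be tested, and in responders Pax3, a factor of muscle and neural precursors, was lower than in control IgG tumors by a log2 fold change of -1.77 ± 0.26 (SE, adjusted p = 0.00113) and than in non-responders by -1.51 ± 0.27 (SE, adjusted p = 0.00793). Pax3 was at 2.55, 3.01, 2.84, 2.65 and 2.97 CPM in the control IgG tumors, 0.439, 0.816, 1.14, 0.596 and 1.11 CPM in the responders, and 1.59, 2.52, 3.26 and 1.96 CPM in the non-responders. All responders were thus below all other tumors, the muscle-poor 30L as well as the muscle-rich 24L and 30R. Chrna1, the muscle acetylcholine receptor alpha subunit, was lower in responders than in control IgG tumors, at -0.60 ± 0.18 (SE, adjusted p = 0.0391). Myh8, the neonatal heavy chain, was highest in the responders 24L and 30R, at 2.89 and 1.91 CPM, with 0.448 CPM in 14R. Myh3, the embryonic chain, was likewise highest there, at 1.20 and 0.953 CPM. Tnnt2, the cardiac and embryonic troponin T, was lower in responders than in both other groups, at -1.12 ± 0.32 and -1.12 ± 0.33 (SE, adjusted p = 0.0315 and 0.0475).

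Markers of other tissues of the flank were measured beside the muscle genes. Of 7 cardiac genes, Nppb, which encodes a natriuretic peptide, was at 10.4 to 44.6 CPM and was the only one that could be tested, with no call in any comparison (lowest adjusted p = 0.205). The other 6 were at no more than 0.512 CPM, the value of Myh6 in 14R, and Myl7 was at 0 in all 14 tumors. The cardiac sums were 25.0 to 42.3 CPM in control IgG tumors, 10.8 to 45.2 CPM in responders, and 20.1 to 38.6 CPM in non-responders. The summed CPM of 8 smooth muscle genes, which spanned 82.0 to 104 in control IgG tumors, 86.8 to 123 among responders and 79.4 to 117 for non-responders, did not have the wide range of the skeletal muscle genes. For 8 adipocyte genes the sums were 93.1 to 169, 103 to 188 and 78.7 to 209 in the same order of groups. In 10 epidermis genes the range of the sums was wider than in muscle, at 8.25 to 761, 14.2 to 1049 and 146 to 317. Tumor 14R, highest in muscle, had the lowest epidermis sum, and 30L, lowest in muscle, had the next lowest. By contrast, 30R was highest in epidermis and among the 4 highest in muscle. The 2 tissues therefore did not rank the tumors alike. The sums for 8 Schwann cell and nerve genes were 26.8 to 35.6, 29.5 to 36.4 and 23.6 to 35.4, and for 6 tendon genes 4.41 to 21.4, 9.98 to 22.3 and 6.92 to 20.2. The 8 colon epithelium and carcinoma genes summed to 252 to 369, 314 to 449 and 235 to 511, of which Krt20 alone made up the larger part in every tumor, at 202 to 489 CPM. Of these lists, the genes that passed the test were Plin4 of adipocytes, Fmod of tendon, Mbp of myelin and Cdx2 of colon epithelium. In responders against control IgG tumors their log2 fold changes were 0.95 ± 0.28, 2.90 ± 0.57, 0.58 ± 0.12 and -1.97 ± 0.55 (SE, adjusted p = 0.0402, 0.00515, 0.00647 and 0.0303), and Mbp was also higher than in non-responders, at 0.70 ± 0.13 (SE, adjusted p = 0.00962). None of these 4 genes had its highest value in 14R or 33R. All 6 T cell genes measured were higher in responders than in control IgG tumors, and 5 of 6 than in non-responders, where 13.2% and 9.9% of all tested genes were called. The part of these tissues in the muscle values was not tested.

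**Figure D5:**
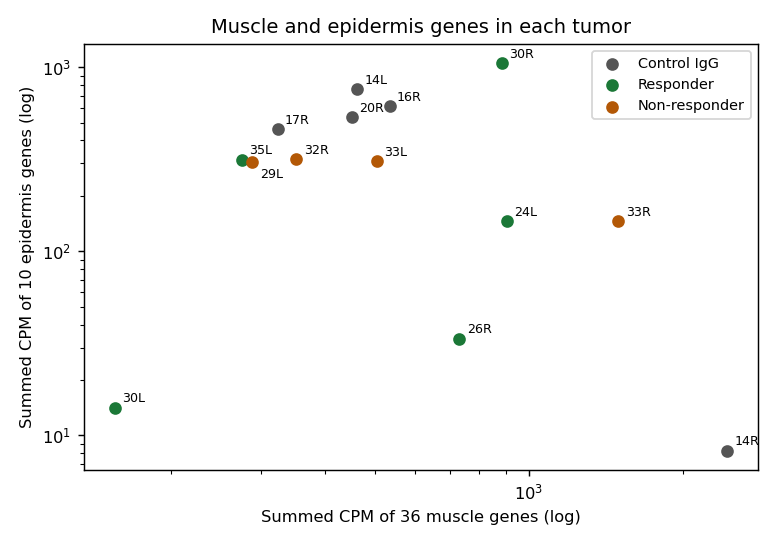
Summed CPM of the 10 epidermis genes (vertical axis, log) against that of the 36 muscle genes (horizontal axis, log) in each tumor, colored by group. Tumor 14R is at 2441 for muscle and 8.25 for epidermis, 30L at 155 and 14.2, and 30R at 885 and 1049.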

How the data were processed

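RNA of 14 tumors was sequenced after oligo(dT) selection as paired-end reads. Alignment to mm10 was done by the authors with STAR, followed by RSEM, and they deposited for each gene the expected count, TPM and FPKM of each tumor. The expected counts deposited are not normalized, the TPM values deposited are scaled by effective length and library, and the FPKM values deposited were not used. Expected counts were rounded, then fitted by edgeR 4.0.16 under R 4.3.3 (TMM, filterByExpr, quasi-likelihood test, all 14 tumors, 3 groups, no covariates, Benjamini-Hochberg adjustment over 16287 genes, threshold 0.05). Alternatives used DESeq2 1.42.0 and limma 3.58.1, TPM with pseudocounts of 1 and 0.1, other filters and scalings, and the omission of tumors. The fit was tested on simulated data. Symbols were matched for 53620 of 53801 identifiers, among them all listed genes, and coordinates come from GENCODE M21. A share of 3 counts, taken as detectable, was at most 9.03e-06% of a library. Replicates differed beyond sampling noise, with a chi-square per gene of at least 19.8 within groups, and the coefficient of variation between tumors was 0.227. The 36 genes and all lists were chosen with earlier results of these data known. Values in every tumor are given for 14 genes of the main parts of the sarcomere and its supply, and for genes whose order over tumors departed from the rest, and genes of the other lists are named if they passed the test or define a cell type.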

Additional observations from a re-analysis of the deposited data

Results flagged for a closer look

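Within each group, the gap between the highest or lowest tumor and its neighbor was compared with the group's range by Dixon's criterion, for 14 genes and for the share of the library. Of 45 sets of values 22 passed it, 15 through 14R and 7 through 33R, where chance alone gives about 1 in 20 if values are normally distributed. The values were not log-transformed and their distribution was not checked, so the chance rate here is not known. Since the genes move together, these are not 22 independent observations.

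In 14R, against the other control IgG tumors, the values were 450.1 CPM for Acta1, 196 CPM for Ckm, 59.6 CPM for Myh1, 27.3 CPM for Myh2, 249.7 CPM for Myh4, 7.88 CPM for Myh7, 91.6 CPM for Mylpf, and 139 CPM for Tnnt3. They were 5.91 CPM for Tnnt1, 5.02 CPM for Myl2, 101 CPM for Des, 18.3 CPM for Ttn, 55.1 CPM for Pvalb, and 213 CPM for Atp2a1, and the share of the library on the 36 genes was 0.236%. In 33R, against the other non-responders, the values were 120.0 CPM for Ckm, 1.65 CPM for Myh7, 82.3 CPM for Mylpf, 85.5 CPM for Tnnt3, 4.27 CPM for Tnnt1, 2.34 CPM for Myl2, and 34.7 CPM for Pvalb. No responder stood apart by this criterion. On values that are not log-transformed, however, a low tumor leaves only a small gap beside the high ones. Tumor 30L was thus not flagged for Acta1, at 6.18 CPM against 33.7 to 145 CPM in the other responders.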

How the results depend on the processing

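The count of 0 muscle genes called between non-responders and control IgG tumors, and that of 0 between responders and non-responders, held under all 29 alternatives. Between responders and control IgG tumors it was 1 (Tnni1) with 1 library per mouse and 1 (Tnni1) without 14R and 33R, and 0 otherwise. The omission of 14R and 33R was chosen after seeing the data, by the muscle level itself, so it bears on direction by construction. Each tumor left out in turn gave 0 to 0 calls in every comparison. With 1 tumor omitted at a time, fold changes (log2) of responders against control IgG ran from -1.05 to 0.28 for Acta1, -1.09 to 0.55 for Ckm, -0.58 to 0.77 for Myh4, and -1.15 to 0.51 for Tnnt3. For non-responders against control IgG it ran from -1.35 to 0.69, -1.75 to 0.88, -1.49 to 0.10, and -1.77 to 0.88. For responders against non-responders it ran from -0.74 to 0.58, -0.67 to 0.97, 0.35 to 1.21, and -0.72 to 0.94. The sign also turned without 14R and 33R, to 0.28 (Acta1), 0.56 (Ckm), 0.77 (Myh4) and 0.51 (Tnnt3) against control IgG, and to 0.58 (Acta1), 0.97 (Ckm) and 0.94 (Tnnt3) against non-responders. With 1 library per mouse it turned to 0.33 (Ckm), 0.46 (Myh4) and 0.27 (Tnnt3) against control IgG, and to 0.29 (Acta1), 0.75 (Ckm) and 0.71 (Tnnt3) against non-responders. With flank as a covariate Myh4 against control IgG was at 0.012, and on log2(TPM + 1) and log2(TPM + 0.1) Ckm against non-responders was at 0.030 and 0.013. Flank as a covariate, the right tumor kept, and the share without Eno3 were also added after seeing the data.

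The median share stayed within 1 SD of its value, and ran from 0.0459 to 0.0507% in control IgG tumors, 0.0519 to 0.0845% among responders, and 0.0340 to 0.0509% for non-responders as tumors were left out. The median Myh7 share was 0.0674 to 0.0776% in the same way. These limits are the shares of 14L and 26R, at 0.01 and 0.02 TPM of Myh7, and so follow the rounding of TPM. The median was 2.91% when the light chain and troponin pairs were used instead, in which the slow troponins have a level in every tumor. No paired analysis was possible because both tumors of a mouse were in 1 group. Without a filter on low counts, Myh7, Myl2 and Myl3 could be fitted by the same edgeR test for responders against control IgG tumors. Their log2 fold changes were -5.17, -5.31 and -5.89, with adjusted p of 0.0824, 0.102 and 0.104. These values rested on 14R, with 369, 235 and 103 counts, as no other control IgG tumor had more than 7 counts of any of them. In 30L the slow share is limited by the 360 counts on the 4 myosins.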
